A study of Homo sapiens with 4 samples.

Results

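The regions described here lie in the chromosome segments that leukaemic K562 cells fuse and are known to carry in extra copies. They are the stretch of chromosome 22 on the centromere side of the break in BCR and the ABL1 side of the break on chromosome 9. A region counted as a member where it stood in at least 1 of 3 lists of ATAC-seq regions that gained signal with a drug, and where its midpoint lay at 16800000 to 23640000 of chromosome 22, a stretch of 6.84 Mb, or at 133600000 to 134200000 of chromosome 9, a stretch of 0.6 Mb (GRCh37). The end at 23640000 is called the BCR limit and the start at 133600000 the ABL1 limit. This gave 467 of 100205 listed regions, or 0.466%, with 438 on chromosome 22 and 29 on chromosome 9. They were set beside 799 listed regions of the next 27.66 Mb of chromosome 22, up to 51300000, and 679 of the next 6.8 Mb of chromosome 9, up to 141000000, called the distal segments below. Another 379 regions came from the flank of chromosome 9, the 6.6 Mb on the centromere side of the ABL1 limit.

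The study measured accessible chromatin by ATAC-seq, in which a transposase inserts sequencing adapters into open DNA. K562, an established line from a chronic myelogenous leukaemia, was used in all 4 groups, so the rearrangement is common to treated and control cells. One group received 10 µM doxorubicin (Doxo), another 10 µM of its dimethyl derivative (diMe-Doxo) and another 20 µM aclarubicin (Acla), each for 4 h, and the last was an untreated control. Each group is 1 GEO sample, for which the lists hold 2 libraries, and the labels do not say that these came from separate cultures, so the spread between libraries may be technical.

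The Philadelphia chromosome arises when a piece of chromosome 9 that starts inside ABL1, a tyrosine kinase gene, is joined to chromosome 22 inside BCR. The fusion gene BCR-ABL1 encodes a kinase that is always active and drives chronic myelogenous leukaemia. In K562 the fusion and its neighbourhood are present in additional copies, so a stretch of DNA there gives more template per cell than other parts of the genome. Anthracyclines slip between the base pairs of DNA; doxorubicin causes double-strand breaks and also evicts histones, and aclarubicin and diMe-Doxo are known as histone evictors that cause few breaks. By the gene order of RefSeq (GRCh38.p14, used for names only), RAB36, GNAZ, RSPH14, IGLL5, GGTLC2 and PRAME are the first genes on the centromere side of BCR. GNAZ encodes a G protein subunit and IGLL5 lies in the immunoglobulin lambda locus. The same side holds 38 of 38 listed genes of the 22q11.2 deletion syndrome region, among them the developmental transcription factor gene TBX1 and the microRNA processing gene DGCR8. QRFP, FIBCD1, LAMC3, AIF1L and NUP214, a nuclear pore gene, follow ABL1 towards the telomere. Regions were not assigned to genes, since no GRCh37 annotation was used here.

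Values are reads inside listed regions, recovered from the authors' normalized signal. The treated libraries held 3534855 to 7266289 reads in the regions of their own list, and the control libraries held 120492 to 253175. How deeply the whole libraries were sequenced is unknown. Each control value was at least 1 read, and a region without reads may stand at 1, so a region with 1 read in each control library is at the lowest value the lists can show. All 3 lists share the same 2 control libraries, and each list holds only regions with a p-value of at most 0.05 and a log2 fold over control of at least 1.5. Members are therefore places that gained signal, not all accessible places of these segments, and a ratio of control reads between segments is no estimate of copy number.

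Control reads at the members were several times higher than outside them, with a drop at the BCR limit. On chromosome 22 the median member had 11.98 and 17.6 reads per kb in control libraries 1 and 2, against 1.90 and 2.79 at the distal regions. The ratios of medians were 6.29 and 6.33, where the median distal region had 1 read in each library, the lowest value. Reads summed over regions and divided by their summed length gave ratios of 7.12 and 5.27. On chromosome 9 the medians were 24.5 and 19.13 reads per kb on the ABL1 side, against 2.43 and 3.56 in the distal segment and 2.64 and 4.36 in the flank. The library values of the members lay above those of the comparison segments in both cases without overlap, but 2 control libraries allow no test, and regions of a library share its depth. Only 26 members (5.57%) stood at 1 read in each control library, compared with 28.8% of all listed regions. It was 32.9% in the chromosome 22 distal segment, 19.3% in the chromosome 9 distal segment and 12.9% in the flank. The authors had called a peak in both control libraries at 94 of the chromosome 22 members (21.5%) and 7 of the chromosome 9 members (24.1%). The shares were 3.004% in the chromosome 22 distal segment, 7.66% in the chromosome 9 distal segment, 11.1% in the flank and 5.63% over all listed regions.

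The members also held a large part of the highest control values among the listed regions, which leave out places that did not gain signal. Of 1929 listed regions with 30 or more reads over both control libraries, 187 were members, or 9.69%, beside their 0.466% of all regions. Members made up 5 of the 10 regions with the most control reads and 36 of the 100 with the most.

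**Figure D1:**
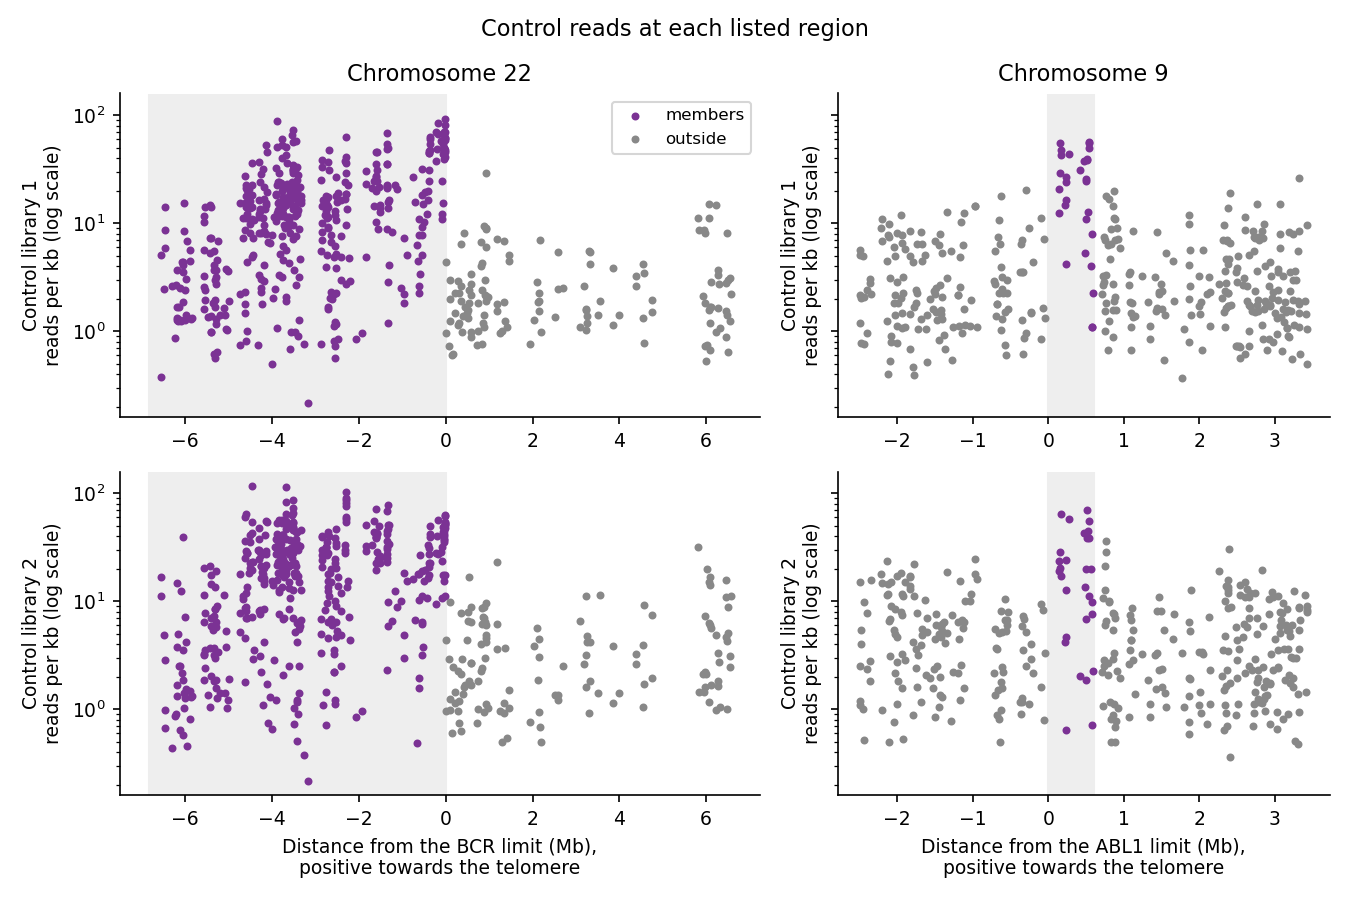
Each point is 1 listed region, placed by its distance in Mb from the BCR limit (left) or the ABL1 limit (right), with its reads per kb in control library 1 (top) and 2 (bottom) on a log scale; purple points on shading are members and grey points lie outside. Control reads drop at the BCR limit, and the members more than about 4.6 Mb on the centromere side of it sit mostly near the level of the grey points.

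The ends of the high stretch were read from the listed regions nearest to them. At the BCR limit, the last member was chr22:23629197-23630423, which had 86 and 64 control reads, 10.2 kb before the limit. The next listed region, chr22:23650954-23651991, 11.5 kb after the limit, had 1 and 1. All 15 members of the last 50 kb before the limit were listed for Doxo alone. They had 12 to 169 reads in control library 1 and 5 to 114 in control library 2, and the 2 regions in the first 50 kb after it had 1 read in each library. On the telomere side of ABL1, chr9:134141093-134142605 had 83 and 84 control reads, and the next listed region, chr9:134163384-134163634, had 1 and 5. The 5 members in the last 50 kb of the chromosome 9 segment had a median of 1 and 5 reads. On the centromere side of ABL1 the nearest regions were farther apart. The region chr9:133552778-133554295, listed for diMe-Doxo and Acla, had 2 and 5 control reads, and chr9:133737651-133738665, listed for Doxo and 138 kb inside the limit, had 21 and 24.

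The high control level did not extend over all of the chromosome 22 segment, and median reads were well above those outside only in the portion next to BCR. Copy number along the segment was not measured. The 356 members from 19 Mb to the BCR limit had medians of 14.8 and 22.5 reads per kb in the control libraries. The 82 members below 19 Mb had 2.59 and 3.30, close to the 1.89 and 2.46 of the 97 listed regions in the first 4.64 Mb beyond the limit. The change fell near 19 Mb and was not sharp. Before it, chr22:18979353-18980306 had 7 and 10 control reads and chr22:19016808-19017491 had 1 and 17, and after it chr22:19025322-19026038 had 11 and 43 but chr22:19035706-19036953 had 1 and 15. These regions and the limit at 19 Mb were chosen after the values had been seen. From 19 Mb to the BCR limit the level varied too. In bins of 0.5 Mb counted from the BCR limit, the bin next to it had the highest median in control library 1, 47.4 reads per kb, and 32.4 in control library 2. The bin from 22.64 to 23.14 Mb had 7.32 and 6.73.

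Regions gained with Doxo were more than 2 times as dense on the chromosome 22 side as in the distal segment, and those of the other drugs were about as dense as there. The Doxo list held 428 members there, 62.6 per Mb, against 714 distal regions, 25.8 per Mb, a ratio of 2.42. The diMe-Doxo list held 77 members, 11.3 per Mb, against 261 distal regions, 9.44 per Mb, and the Acla list 73 members, 10.7 per Mb, against 332 distal regions, 12.003 per Mb. With stricter limits (FDR up to 0.01, log2 fold from 2) the Doxo densities were 27.8 per Mb for members and 14.2 for distal regions. Counting only regions without any control peak they were 39.5 and 23.2. The ratio for diMe-Doxo, 1.19, went below 1 without control library 1 (0.891), at the stricter limits (0.985) and without the control peaks (0.986). In whole windows of 1 Mb, Doxo members numbered 32 to 103 (median 55, 6 windows) and distal Doxo regions 0 to 61 (median 25, 27 windows), so that the ranges overlapped. The fullest member window, at 19.8 to 20.8 Mb, held 103 Doxo regions, 26 diMe-Doxo regions and 16 Acla regions. Regions also lay closer together: the median gap between neighbours was 3.21 kb among chromosome 22 members and 11.5 kb in the distal segment.

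On chromosome 22, both portions of the segment, below and above 19 Mb, exceeded the stretch beyond the limit in mean Doxo density. That stretch was uneven, and its first 1 Mb was denser than the portion below 19 Mb. There were 75.2 Doxo regions per Mb from 19 Mb to the BCR limit, 35.9 below 19 Mb, and 20.5 in the first 4.64 Mb beyond the limit. The diMe-Doxo densities were 11.9, 10 and 5.17 per Mb in the same order, and those of Acla 10.1, 11.8 and 6.25.

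On chromosome 9 the members were less dense than the distal regions for every drug. The ABL1 side held 28 Doxo regions (46.7 per Mb), 5 diMe-Doxo regions (8.33 per Mb) and 3 Acla regions (5 per Mb). The distal segment had 79.7, 54.7 and 52.6 per Mb and the flank 48.9, 23.8 and 22.4 per Mb. For Doxo the ratio of the ABL1 side was thus 0.585 to the distal segment and 0.954 to the flank. The segment is 0.6 Mb long, and these counts rest on few regions.

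**Figure D2:**
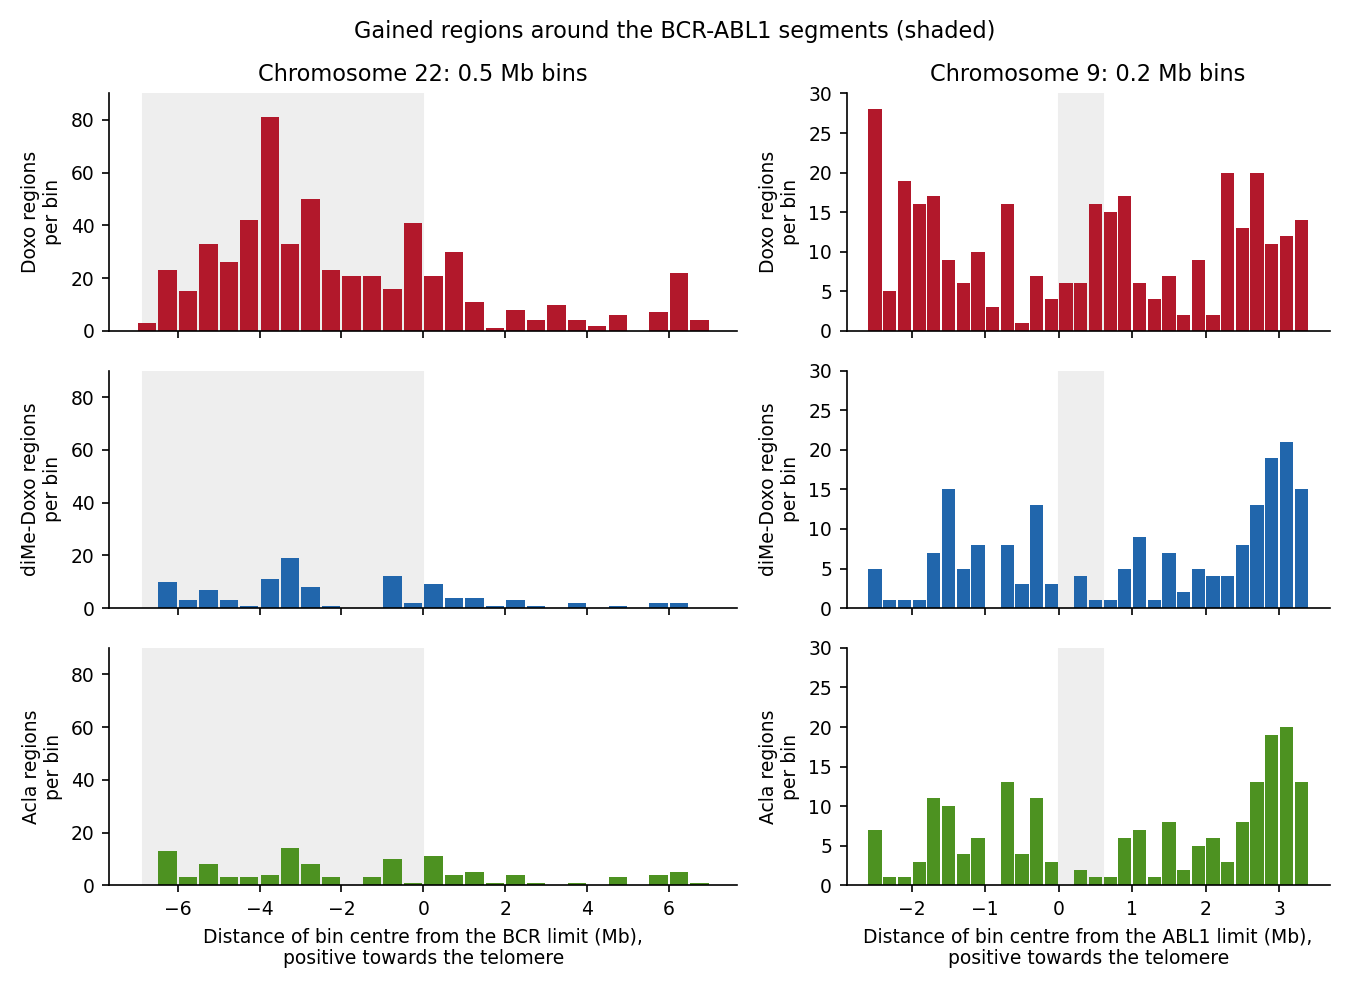
Bars give the number of Doxo, diMe-Doxo and Acla regions per bin of 0.5 Mb on chromosome 22 (left) and 0.2 Mb on chromosome 9 (right), by distance of the bin from the BCR or ABL1 limit, with the member segments shaded. Doxo bins of the chromosome 22 members reach 81 regions, while diMe-Doxo bins there reach 19 and Acla bins 14.

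Most members were listed for Doxo alone. Of the 467 members, 456 (97.6%) were in the Doxo list, 82 (17.6%) in the diMe-Doxo list and 76 (16.3%) in the Acla list, where the background over all listed regions was 66.6%, 52.7% and 61.2%. On chromosome 22, 338 of 438 members (77.2%, exact binomial 95% interval 72.9 to 81.0) were in the Doxo list only, against 437 of 799 distal regions (54.7%, 51.2 to 58.2). On chromosome 9 it was 23 of 29 members (79.3%, 60.3 to 92.01) against 272 of 679 distal regions (40.1%, 36.3 to 43.9). In the flank it was 191 of 379 regions (50.4%, 45.2 to 55.5). The share over all listed regions was 29.5%. These intervals cover counting error only and treat regions as independent, which neighbouring regions are not. Regions gained with all 3 drugs made up 10.7% of the chromosome 22 members and 23.2% of the distal regions, and 6.90% of the chromosome 9 members and 33.9% of the distal regions. The share was 24.3% in the flank and 28.7% over all listed regions.

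Only 11 members were missing from the Doxo list. Of these, 6 were listed for diMe-Doxo alone, 2 for Acla alone and 3 for both. The 3 listed for both were chr22:18550223-18550933, with 1 and 1 control reads, chr22:23021919-23022432, with 4 and 1, and chr22:23089324-23090121, with 4 and 9. The single such member of chromosome 9, chr9:134193400-134193843, was listed for Acla with 28 and 49 reads against 1 and 1 in the controls. Its log2 fold was 2.47, and it lay beyond the drop in control reads described above.

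**Figure D3:**
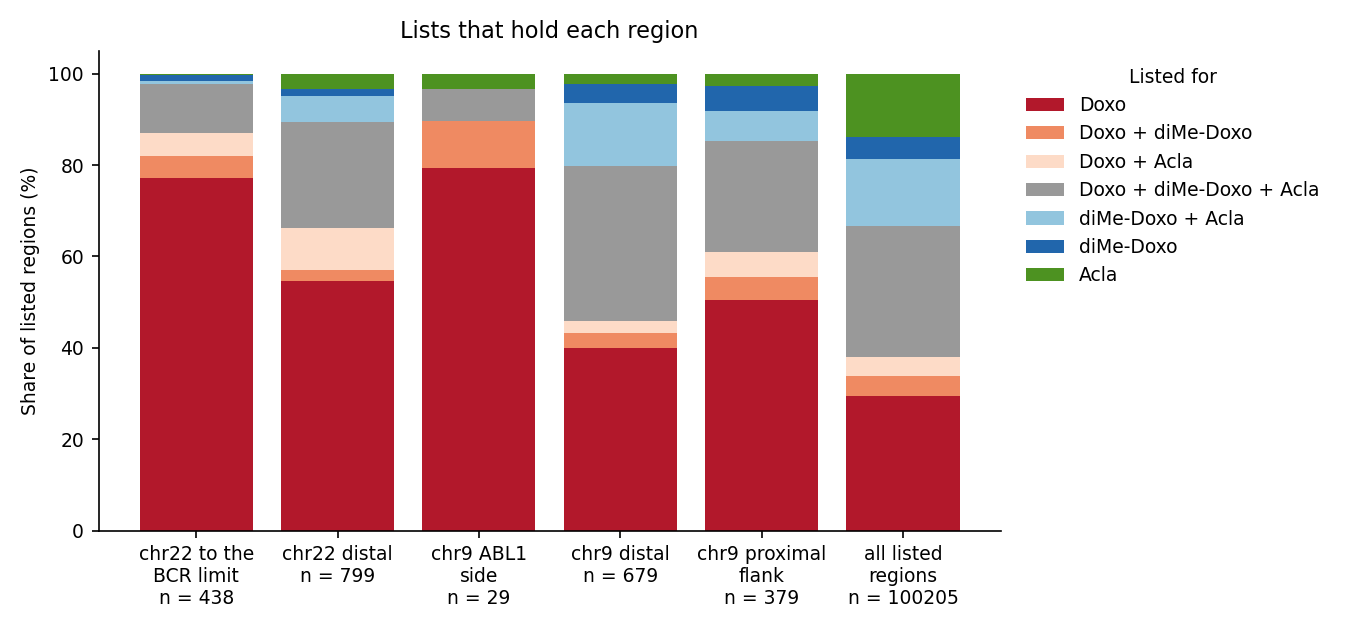
Stacked bars give the share (%) of listed regions by the lists that hold them, for the member segments, their comparison segments and all listed regions. The share listed for Doxo alone is 77.2% and 79.3% in the member segments, 54.7% and 40.1% in the distal segments and 29.5% over all listed regions.

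The share listed for Doxo alone moved with the control reads, inside and outside the segments. Among the 187 members with 30 or more control reads, 94.1% were listed for Doxo alone, and among all 1929 listed regions of that class 90.6%. With 10 to 29 control reads the shares were 75% of 152 members and 56.1% of all, with 3 to 9 they were 56.9% of 102 members and 26.8% of all, and with 2 reads 50% of 26 members and 18.1% of all. On chromosome 22 itself the members of the class of 3 to 9 reads stood at 57.1% and the distal regions at 57.4%. In the class of 10 to 29 reads the distal share was higher, with 75% of 140 members and 93.2% of 74 distal regions. In the class of 2 reads it was 52% of 25 members and 38.8% of 263 distal regions, so the order of members and distal regions differed between the classes. The classes were chosen after the data had been seen.

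Along the segment the bins differed, and not always with their control reads. The 4 bins given here were chosen after their values had been seen. The bin of 0.5 Mb next to the BCR limit, with the highest median in control library 1, held 42 members, of which 41 were in the Doxo list, 2 in the diMe-Doxo list and 1 in the Acla list. In the bin from 22.64 to 23.14 Mb, with lower control reads, there were 19 members, 16 of them in the Doxo list, 12 in the diMe-Doxo list and 10 in the Acla list. The bin from 18.14 to 18.64 Mb had low medians of 1.92 and 3.73 control reads per kb, yet 24 of its 34 members were listed for Doxo alone. The bin from 20.14 to 20.64 Mb had 15.7 and 9.76, and 14 of its 34 members were listed for Doxo alone. Over all members, the 361 listed for Doxo alone had medians of 14.8 and 22.5 control reads per kb, and the 49 listed for all 3 drugs had 4.13 and 3.31.

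The fold limit of the lists is relative to the control signal of a region, and the signal per read differed between lists. A control read counted for more signal in the diMe-Doxo and Acla lists than in the Doxo list, and a treated read for less. To reach a log2 fold of 1.5, a region needed about 5.65 Doxo reads per control read, 13.8 diMe-Doxo reads per control read or 19.7 Acla reads per control read. The part of this in the membership of the members was not tested.

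The median fold of the members was below that of the distal regions with each drug, though not in every portion or at every limit. The median log2 fold of the authors with Doxo was 2.48 at the chromosome 22 members and 3.13 at the distal regions. With diMe-Doxo it was 2.03 and 2.52, and with Acla 2.16 and 2.54. The members below 19 Mb had medians of 3.30 with Doxo and 2.59 with diMe-Doxo, above those of the distal regions, and those from 19 Mb to the BCR limit had 2.35 and 1.92. At the stricter limits the difference of members minus distal regions was -0.06 for diMe-Doxo and 0.10 for Acla. On the ABL1 side of chromosome 9 the Doxo median was 2.35, against 3.23 in the distal segment. The lists were built from these libraries by their gain, so the folds are a description and carry no test.

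In treated cells the members also held more reads per kb. The chromosome 22 members had medians of 176 and 187 reads per kb in the Doxo libraries, against 55.8 and 62.3 at the distal regions, ratios of 3.15 and 2.99. In the diMe-Doxo libraries they had 170 and 156, against 58.0 and 45.3, and in the Acla libraries 143 and 151, against 73.3 and 84.3. Each list has its own set of regions, so the drugs stand side by side here. At regions gained with all 3 drugs, 47 members and 185 distal regions, the ratios were 2.75 and 2.47 in the Doxo libraries, 2.85 and 3.01 in the diMe-Doxo libraries and 2.69 and 2.31 in the Acla libraries. In the control libraries they were 3.23 and 2.14 there, but 89 of the 185 distal regions and 6 of the 47 members stood at 1 read in each control library, so the control ratios rest on the lowest value of the lists.

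The higher density of Doxo regions on chromosome 22 lay in the classes with a log2 fold under 3. Doxo regions with a log2 fold under 2 numbered 14.2 per Mb among the members and 0.615 per Mb in the distal segment, and those of 2 to 3 numbered 32.5 and 10.2 per Mb. Those of 3 and more numbered 15.9 and 15.04 per Mb, nearly the same. In shares, 22.7% of the Doxo members had a fold under 2, against 2.38% of the distal Doxo regions. These classes were set after the data had been seen.

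**Figure D4:**
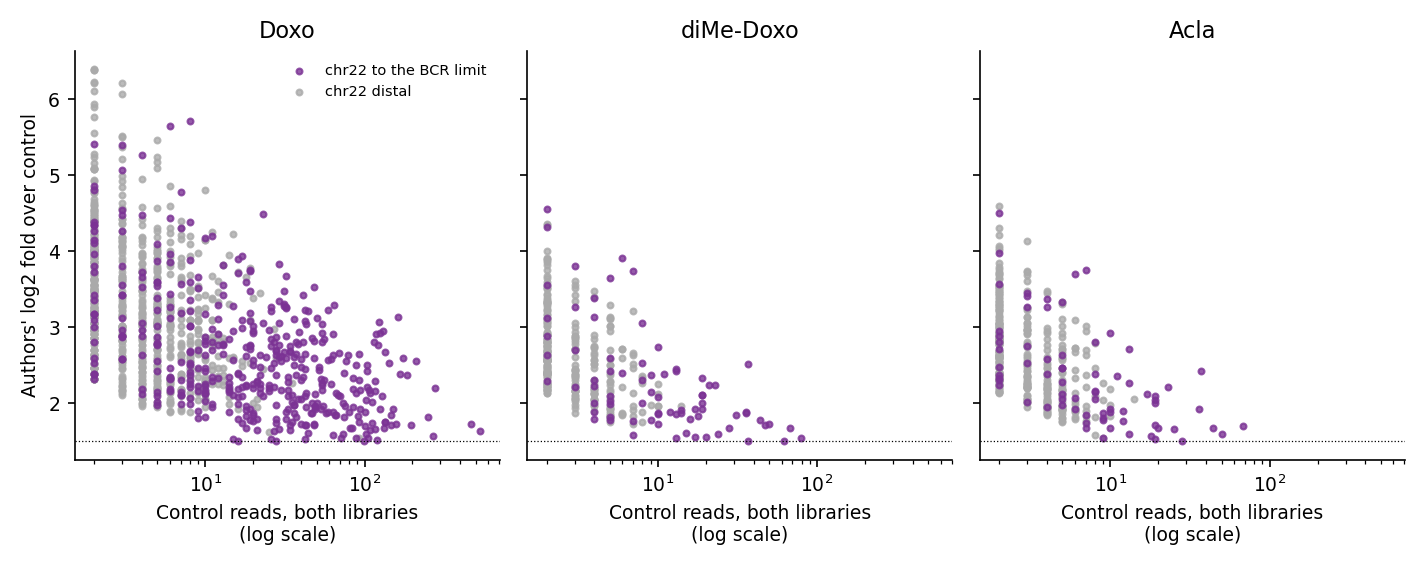
Each point is 1 listed region of chromosome 22, with its reads over both control libraries (log scale) and the authors' log2 fold with Doxo, diMe-Doxo or Acla; purple points are members, grey points distal regions, and the dotted line is the lowest fold of the lists, 1.5. Members extend to far higher control reads than distal regions, mostly in the Doxo panel, and their folds there lie nearer to the line.

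The members with the lowest FDR for Doxo were gained with all 3 drugs, and their control reads ran from 1 to 13 per library. At chr22:18298618-18301762 the Doxo libraries had 517 and 519 reads, the diMe-Doxo libraries 318 and 222 and the Acla libraries 348 and 403, against 13 and 10 in the controls. Both libraries of each drug were far above both controls, and the authors' log2 folds were 4.49 with Doxo (FDR 4.24e-08), 2.24 with diMe-Doxo and 2.21 with Acla. At chr22:20151986-20153351 the Doxo libraries had 305 and 304 reads, the diMe-Doxo libraries 256 and 211 and the Acla libraries 253 and 320, against 5 and 1 in the controls, with log2 folds of 5.65, 3.91 and 3.70. At chr22:18592891-18594826 the log2 folds were 5.27, 3.38 and 3.26. The region of lowest FDR for diMe-Doxo and for Acla was chr22:17443544-17444303. It had 50 and 66 Doxo reads, at least 103 reads in each diMe-Doxo library and 153 and 163 Acla reads, against 1 read in each control, and log2 folds of 4.86, 4.55 and 4.50. Beside chr22:20151986-20153351, the other region among the lowest for diMe-Doxo was chr22:17493005-17494208 (3.60 with Doxo, 3.65 with diMe-Doxo and 3.33 with Acla). For Acla it was chr22:17324977-17327257 (4.78, 3.74 and 3.75 in the same order). Of these 6 regions, 5 lie below 19 Mb, in the portion whose median control reads per kb were near those outside the segment.

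The widest members and those with the most control reads were mostly gains with Doxo alone, at regions with many control reads. The widest, chr22:19509368-19514730, spans 5362 bp and had the most control reads of all listed regions. The Doxo libraries held 1578 and 1725 reads there and the controls 246 and 288, and the log2 fold was 1.63. At chr22:22313651-22317303 Doxo gave 1510 and 1568 reads and the controls gave 181 and 286 (log2 fold 1.73). At chr22:23604288-23606887, near the BCR limit, Doxo gave 1248 and 1306 reads and the controls gave 169 and 108 (2.20). At chr22:19135027-19139563 there were 1054 and 1051, against 72 and 102 (2.60). In each of these the Doxo libraries differed from each other by far less than from the controls and lay above both controls. The gap was smaller in normalized reads, where the widest had 1122 and 1215 with Doxo against 355 and 399 in the controls. The second widest, chr22:20457409-20461997 with 4588 bp, was unlike them, with 50 and 31 Doxo reads against 1 and 1 in the controls, although the authors list a peak there in both control libraries.

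Few members with many control reads were in the diMe-Doxo and Acla lists. Of the 187 with 30 or more control reads, 11 (5.88%) were in the diMe-Doxo list and 5 (2.67%) in the Acla list. The shares were low over all 1929 listed regions of that class too, at 8.81% and 4.25%. At chr22:20135598-20137830 the libraries had 472 and 511 Doxo reads and 585 and 533 diMe-Doxo reads, against 38 and 41 in the controls, with log2 folds of 2.64 and 1.54. At chr22:20988581-20991053 there were 322 and 259 Doxo reads, 540 and 481 diMe-Doxo reads and 668 and 822 Acla reads, against 19 and 49 in the controls, with log2 folds of 2.11, 1.67 and 1.70. At chr22:20197043-20198806 the log2 folds were 2.58 with Doxo and 1.5 with diMe-Doxo. In the Acla list chr22:23097006-23099036 had a log2 fold of 1.59 (FDR 0.0691) and chr22:20302601-20304378 one of 1.68 (FDR 0.0512). The region chr22:20155496-20157521, named after its values were seen, had a log2 fold of 2.65 with Doxo, 2.52 with diMe-Doxo and 2.43 with Acla, and its control libraries differed, with 2 and 35 reads.

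The ABL1 side held a pair of neighbouring regions listed for all 3 drugs beside others listed for Doxo alone. At chr9:133830801-133831986 the Doxo libraries had 440 and 481 reads, the diMe-Doxo libraries 446 and 390 and the Acla libraries 486 and 493, against 5 and 15 in the controls, with log2 folds of 4.54, 3.16 and 2.87. At chr9:133834402-133835697 there were 538 and 511, 462 and 388, and 549 and 507 reads with Doxo, diMe-Doxo and Acla, against 21 and 6 in the controls, with log2 folds of 4.27, 2.62 and 2.42. Between them chr9:133832083-133833638 was listed for Doxo alone, with 407 and 466 reads against 42 and 1 in the controls (3.32), so that the control libraries differed there by more than at its neighbours. This region was named after its values were seen. On the centromere side of these, chr9:133759475-133762596 had 1341 and 1461 Doxo reads against 173 and 89 in the controls (2.41) and was listed for Doxo alone; it too was named after its values were seen. The members chr9:133762719-133762953 (3.03) and chr9:133755558-133756598 (2.42) were listed for Doxo alone as well. The member chr9:134103547-134104278 had log2 folds of 3.37 with Doxo and 1.58 with diMe-Doxo. At chr9:133825005-133825484 they were 2.80 and 1.67 (FDR 0.0705 with diMe-Doxo), and at chr9:133828141-133828265 they were 2.03 (FDR 0.0643 with Doxo) and 2.04.

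Because Doxo and diMe-Doxo had equal dose and time, their libraries were compared directly at the 33140 regions in both lists, of which 73 are members. Members in only 1 of these 2 lists could not enter the test. They were 361 listed for Doxo alone, 22 for Doxo and Acla, 6 for diMe-Doxo alone and 3 for diMe-Doxo and Acla. With limma on log2(normalized reads + 1), on the scale of the shared controls and adjusted by Benjamini-Hochberg over all 33140 regions, 37 of the 73 members were higher with Doxo and 0 were lower. At an unadjusted p under 0.05 the counts were 39 and 0, and edgeR's quasi-likelihood test called 37 and 0 at an adjusted p of at most 0.05. The background over all regions tested was 28.2% higher and 2.73% lower with limma, and 28.9% and 2.72% with edgeR. On chromosome 22, 33 of 68 members (48.5%) were higher with Doxo, beside 92 of 203 distal regions (45.3%, 1 lower), and on chromosome 9 it was 4 of 5 members beside 107 of 251 distal regions (20 lower). At regions with a mean of at least 20 normalized reads, 31 of 58 chromosome 22 members (53.4%) were higher with Doxo, beside 77 of 103 distal regions (74.8%), with median log2 differences of 0.66 and 1.51. Over all tested regions of each set, the median log2 difference of Doxo minus diMe-Doxo was 0.56 at the members, 0.79 at the chromosome 22 distal regions and 0.25 over all regions. Centring each library on its median moved all differences down by 0.36, which left 32 members higher and 0 lower, beside 22.4% and 11.1% of all regions. Both Doxo libraries lay above both diMe-Doxo libraries at 46 of 73 members and below them at 0, where the background was 44.6% above and 14.2% below. With 2 libraries a side an exact permutation test of 1 region cannot go under a two-sided p of 0.333. Each group is 1 GEO sample, so the limma and edgeR calls rest on a spread between libraries that may be technical.

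The difference was largest, and its adjusted p lowest, at chr22:17589048-17590770. On the scale of the Doxo list the Doxo libraries had 293 and 310 normalized reads and the diMe-Doxo libraries 39.7 and 30.03, a log2 difference of 3.09 ± 0.21 (SE, limma adjusted p 6.59e-15). At chr22:18298618-18301762 they were 367 and 365 with Doxo and 90.9 and 65.4 with diMe-Doxo (2.23 ± 0.20, limma adjusted p 3.69e-12), the next lowest adjusted p. At chr22:21089102-21090882 they were 76.8 and 101 with Doxo and 14.3 and 12.7 with diMe-Doxo (2.62 ± 0.27, limma adjusted p 1.53e-10). The libraries of the drugs did not overlap at any of these 3. These SE and adjusted p values measure the spread between libraries, which may be technical, and do not show a difference repeated in separate cultures.

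None of the 73 members tested passed in the other direction, and members listed for diMe-Doxo without Doxo were not tested. The most negative was chr22:23087163-23087820, with 28.4 and 21.8 normalized reads in the Doxo libraries and 35.1 and 25.9 in the diMe-Doxo libraries, a log2 difference of -0.27 ± 0.30 (SE, limma adjusted p 0.584). At chr22:19593099-19593871 the difference was -0.13 ± 0.33 and at chr22:23141953-23142537 it was -0.07 ± 0.28. On the ABL1 side the log2 differences were 1.59 at chr9:133834402-133835697, 1.42 at chr9:133830801-133831986, 1.72 at chr9:134103547-134104278 and 1.04 at chr9:133825005-133825484, all past the threshold. At chr9:133828141-133828265 the difference was -0.09 ± 0.37 (limma adjusted p 0.915). Acla was given at another dose, and its values stand beside those of the other drugs with no test.

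**Figure D5:**
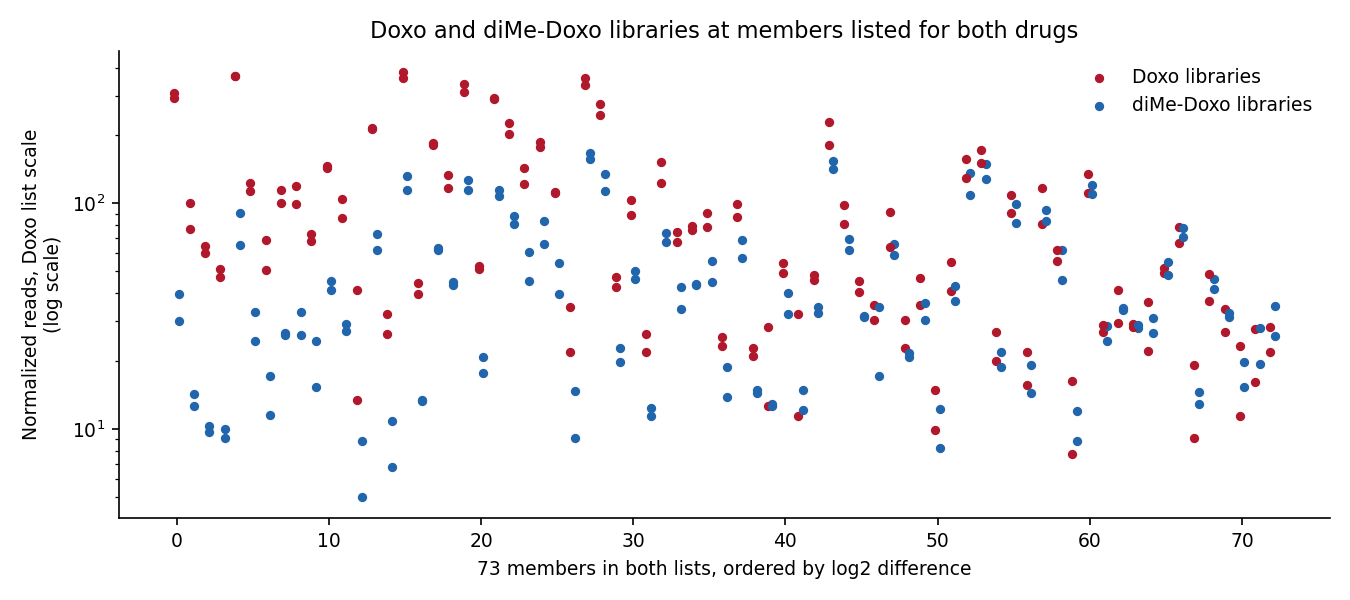
Each of the 73 members in both lists is a position on the horizontal axis, ordered by its log2 difference, with normalized reads on a log scale in the Doxo libraries (red) and the diMe-Doxo libraries (blue). Red points lie above blue ones without overlap at 46 members, and blue points lie above red ones without overlap at none.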

How the data were processed

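The submitters' processing notes name GRCh37 as the build and DiffBind as the tool that compared regions. For aligner, peak caller and normalization, nothing is given in the sources used here. The deposited lists have no header, and their columns were identified from the values. They give the authors' mean log2 signal and log2 fold, the authors' p-value and FDR, a deposited normalized signal per library, the deposited count of treated and of control libraries with a called peak, and the authors' peak mark for each library. Dividing a deposited signal by its library's smallest step gave a whole read count within 0.1 reads for 100% of values. In the treated columns of diMe-Doxo and Acla the lowest values are many steps, so edgeR on recovered reads is an alternative only. Coordinates are copied from the lists, where the base of the start (0 or 1) is not stated. No column was left unmapped.

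A region belonged to a segment by its midpoint. Densities, shares (exact Clopper-Pearson 95% intervals), reads per kb and the authors' folds were described without a test, since each group is 1 GEO sample. Doxo and diMe-Doxo were compared with limma (moderated, with trend) on log2(signal + 1) and Benjamini-Hochberg adjustment (limit 0.05), after tests on simulated data. The named regions are, per drug, the 3 members with the lowest FDR, the 3 widest and the 3 with most control reads, the 5 of chromosome 9 with the lowest FDR, the regions nearest to the limits, and the 3 with the lowest adjusted p of Doxo against diMe-Doxo in each direction. The members, lists and tests were chosen with earlier results of these data known. Tests were run in R 4.3.3 with limma 3.58.1 and edgeR 4.0.16. Tables and plots came from Python 3.11.15 (pandas 2.3.3, numpy 2.4.6, matplotlib 3.10.9, scipy 1.17.1).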

Additional observations from a re-analysis of the deposited data

Results flagged for a closer look

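Among the members listed for both drugs, 3 had the lowest adjusted p in the direct test of Doxo against diMe-Doxo. The log2 difference of Doxo minus diMe-Doxo was 3.09 at chr22:17589048-17590770, 2.23 at chr22:18298618-18301762 and 2.62 at chr22:21089102-21090882. There were 73 such members, and 28.2% of all regions tested were called higher with Doxo. Leaving out 1 library kept the first between 2.89 and 3.28, the second between 2.0 and 2.47 and the third between 2.43 and 2.82.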

How the results depend on the processing

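Of 199 values under alternatives, 149 were counted as kept. Shares had to stay within their binomial interval, and reads per kb and folds within a spread between libraries. For reads per kb this spread came from the same 2 libraries, so leaving 1 of them out always counted as kept. The chromosome 9 control ratio of 7.74 counted as kept at 5.38 without control library 1 and at 10.09 without control library 2. Density ratios and numbers of calls were allowed to change by a set factor. The Doxo density ratio of chromosome 22 with no control peak, 1.70, thus counted as kept. The Doxo density ratio of chromosome 22 (2.42) stayed between 2.19 and 2.41 without 1 library. For densities and shares, leaving out a library could only remove regions from the authors' lists and add none, which limits how far they could move. The values that turned were 5: the diMe-Doxo density ratio of chromosome 22 (1.19) was 0.985 under stricter limits (FDR up to 0.01, log2 fold from 2), 0.986 with no control peak and 0.891 to 1.16 without 1 library; the median log2 fold difference for Acla was 0.10 on chromosome 22 at the stricter limits (-0.38 in the report), and on chromosome 9 it was 0.21 without Acla library 1, in a range of -0.65 to 0.21. The cause was not tested. On chromosome 9, density ratios were 0.376 for Doxo with an end 0.2 Mb earlier, 0.954, 0.350 and 0.223 for Doxo, diMe-Doxo and Acla against the flank, and 0.143 for Acla at the stricter limits. The chromosome 22 share listed for Doxo alone was 88.6% at the stricter limits and 71.7% with no control peak. The chromosome 22 control ratio (6.31 over both libraries) was 6.19 from sums (7.12 and 5.27 in libraries 1 and 2), 2.68 at regions in all 3 lists, 5.80 with no control peak, 6.89 from 18 Mb and 7.92 from 19 Mb. The same settings gave 2.61 (all 3 lists), 3.28 and 3.60 (18 and 19 Mb) for Doxo libraries, 3.76 and 4.05 for diMe-Doxo libraries, and 2.19 (sums), 2.50, 2.28 and 2.71 for Acla libraries. On chromosome 9 sums gave 2.81 and 2.97 and regions in all 3 lists 7.04 and 3.43 for Doxo and diMe-Doxo libraries. Fold differences on chromosome 22 were -0.78, -0.60 and -0.54 from 19 Mb for Doxo, diMe-Doxo and Acla; for diMe-Doxo they were -0.06 at the stricter limits and -0.59 from 18 Mb, and on chromosome 9 Acla gave -0.58 at the stricter limits. Without 1 library they were -0.91 to -0.61, -0.52 to -0.32 and -0.48 to -0.14 on chromosome 22 for Doxo, diMe-Doxo and Acla, and -1.72 to -0.74 for Doxo and -1.12 to -0.30 for diMe-Doxo on chromosome 9. Over all regions, calls lower with Doxo than with diMe-Doxo (905) numbered 3508 with edgeR and TMM, 3666 with centring and 97 to 1674 without 1 library, while those higher ranged from 7396 to 9442. Among members 33 to 37 were higher and 0 lower without 1 library, and 32 to 37 of the member calls were shared with the main test. The 19 Mb start and the flank were chosen after the data had been seen. No paired analysis was possible because the labels give each group 1 sample and the library columns carry no shared number. Low control reads limit the folds, since 28.8% of all listed regions stand at 1 read in each control library.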

Other observations

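At some members the authors list a peak in both control libraries although few control reads were recovered. Of the 101 members with a peak in both, 10 (9.90%) had at most 6 control reads over both libraries and 3 had 1 read in each. Over all listed regions it was 728 of 5645 (12.9%) and 93. Reads that give such peaks were not analysed here.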
